A study of Mus musculus with 8 samples.

Results

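Beige fat marker genes were followed in the brown fat of Prdm16 knockout mice and wild-type mice. The set holds 10 of the 31829 gene names on the array (Tmem26, Tnfrsf9, Tbx1, Cited1, Klhl13, Slc36a2, P2rx5, Kcnk3, Sp100 and Ear2), and its members are the 11 of 39429 non-control probes that carry one of these names in the scanner tables. The groups were Prdm16 knockout and wild-type (WT) brown adipose tissue at the age of 6 weeks, and Prdm16 knockout and wild-type brown adipose tissue at 11 months, with 4 biological replicates in each. The labels give no strain, sex, Cre driver or allele, so they do not say which cells lost the gene. Each of 8 Agilent 2-colour arrays received total RNA of 1 knockout and 1 age-matched wild-type sample, with the knockout sample in Cy3 on 2 arrays and in Cy5 on 2 arrays at either age. The labels call the ages separate batches, and each had its own slide, so age and slide cannot be told apart in any difference between them.

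Beige adipocytes are thermogenic fat cells that appear within white fat depots, for example on exposure to cold, and burn fuel through the mitochondrial uncoupling protein UCP1. They arise apart from the classical brown adipocytes of the interscapular depot, and genes such as Tmem26, Tbx1, Cited1 and Tnfrsf9 (CD137) have been used in mice to tell the 2 kinds of cell apart. PRDM16 is a zinc-finger regulator of transcription that promotes the thermogenic gene programme in both. P2rx5 and Slc36a2 were proposed as surface markers that brown and beige adipocytes of mice share.

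Klhl13 RNA was higher in knockout brown fat at both ages, 2.17-fold at 6 weeks and 3.78-fold at 11 months. Slc36a2, P2rx5 and Kcnk3, which encode membrane transport proteins, were lower in knockout brown fat at 11 months, by 2.28-fold, 2.21-fold and 2.65-fold. At 6 weeks P2rx5 and Kcnk3 were lower by 1.28-fold and 1.37-fold. Tnfrsf9, Tbx1, Cited1, Sp100 and Ear2 did not pass the test at either age, and the Tmem26 probe was not well above background on any array.

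The probes behind these values are 60 bases long, and the last 30 bases of the deposited probe sequence are shown for the 4 genes that passed and for the 2 Tnfrsf9 probes, which end very differently. Capitals mark a run of alternating G and T of at least 10 bases.
Klhl13 A_55_P2111770: taaaaacatttaatgtcattctgctctgtg
Slc36a2 A_51_P366672: accaagcataatacagggctcttatataat
P2rx5 A_55_P2178678: tgagataaaggataattttcactgaaaagc
Kcnk3 A_52_P639402: cctgtgtgtatcccatgtccgtgtggagga
Tnfrsf9 A_55_P2029061: taaaatcaGTGTGTGTGTGTGTGTGTGTGT
Tnfrsf9 A_55_P2082180: taacatatttgtctttaccttttttaaatc
On mouse build mm9, the build of the array's annotation, the scanner tables place the Klhl13 probe at chrX:22796399-22796458 (minus strand), the Slc36a2 probe at chr11:54972134-54972193 (minus strand), the P2rx5 probe at chr11:72986128-72986187 (plus strand) and the Kcnk3 probe at chr5:30927090-30927149 (plus strand). The Tnfrsf9 probes lie at chr4:150319582-150319641 and chr4:150319101-150319160 (plus strand), with starts 481 bases apart. The tables assign each of the 6 probes to a transcript of its gene but do not say whether it lies in coding sequence or in an untranslated region.

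Each probe has levels and ratios. A level is the log2 intensity of 1 channel after loess normalization within the array and quantile normalization between arrays. The latter gave the channel averages 1 common distribution over all 8 arrays of both ages. A ratio is log2 of knockout over wild type on 1 array, so that a negative ratio means less signal from the knockout sample. Changes are coefficients of 1 limma model of all 8 arrays with a term for each age and a shared dye term. They are given ± the standard error, with p-values adjusted by the Benjamini-Hochberg method over the 26815 kept probes, those with at least 4 of 16 channel measurements well above background. A change passed at an adjusted p below 0.05. Of the 11 probes, 10 were kept, and the Tmem26 probe was not.

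Between 61.2% and 68.2% of spots per channel were well above background. The targeted gene was lower by 1.49-fold at 6 weeks (-0.58 ± 0.15, adjusted p = 0.0406) and by 1.42-fold at 11 months (-0.50 ± 0.15, adjusted p = 0.0372) on the Prdm16 probe used, and the files do not say whether that probe lies in the deleted part. Neither Prdm16 call passed with median centring of each array (-0.42, adjusted p = 0.231, and -0.27, adjusted p = 0.352) or without a dye term (adjusted p = 0.0811 and 0.077). At 6 weeks it also missed the threshold with the scanner ratio (adjusted p = 0.0744), without background subtraction (adjusted p = 0.06) and in the deposited table (adjusted p = 0.0591), and with single arrays left out adjusted p reached 0.15 at 6 weeks and 0.156 at 11 months. Knockout levels of Prdm16 spanned 9.16 to 9.51 and wild-type levels 9.11 to 10.39 at 6 weeks, and 9.03 to 9.49 against 9.45 to 10.45 at 11 months, so the genotypes overlapped at both ages. Of the brown fat genes that define the labelled tissue, Ucp1, Cidea, Cox8b, Dio2 and Elovl3 were well above background in every knockout and wild-type sample at both ages.

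At 6 weeks 1 beige marker probe passed as higher in knockout brown fat (Klhl13) and 2 as lower (P2rx5 and Kcnk3), while 7 of 10 did not pass. Over all kept probes, 9.57% passed as higher and 7.06% as lower at this age (16.6% in either direction). The median change of the 10 probes was -0.09, against a median of 0.0013 over all kept probes. At 11 months 1 passed as higher (Klhl13) and 3 as lower (Slc36a2, P2rx5 and Kcnk3), while 6 did not pass. The background at this age was 17.4% higher and 16.4% lower (33.8% in either direction), and the medians were 0.02 for the 10 probes and 0.0094 for all. The 4 of 10 that passed at 11 months are a share near the background of that age.

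**Figure D1:**
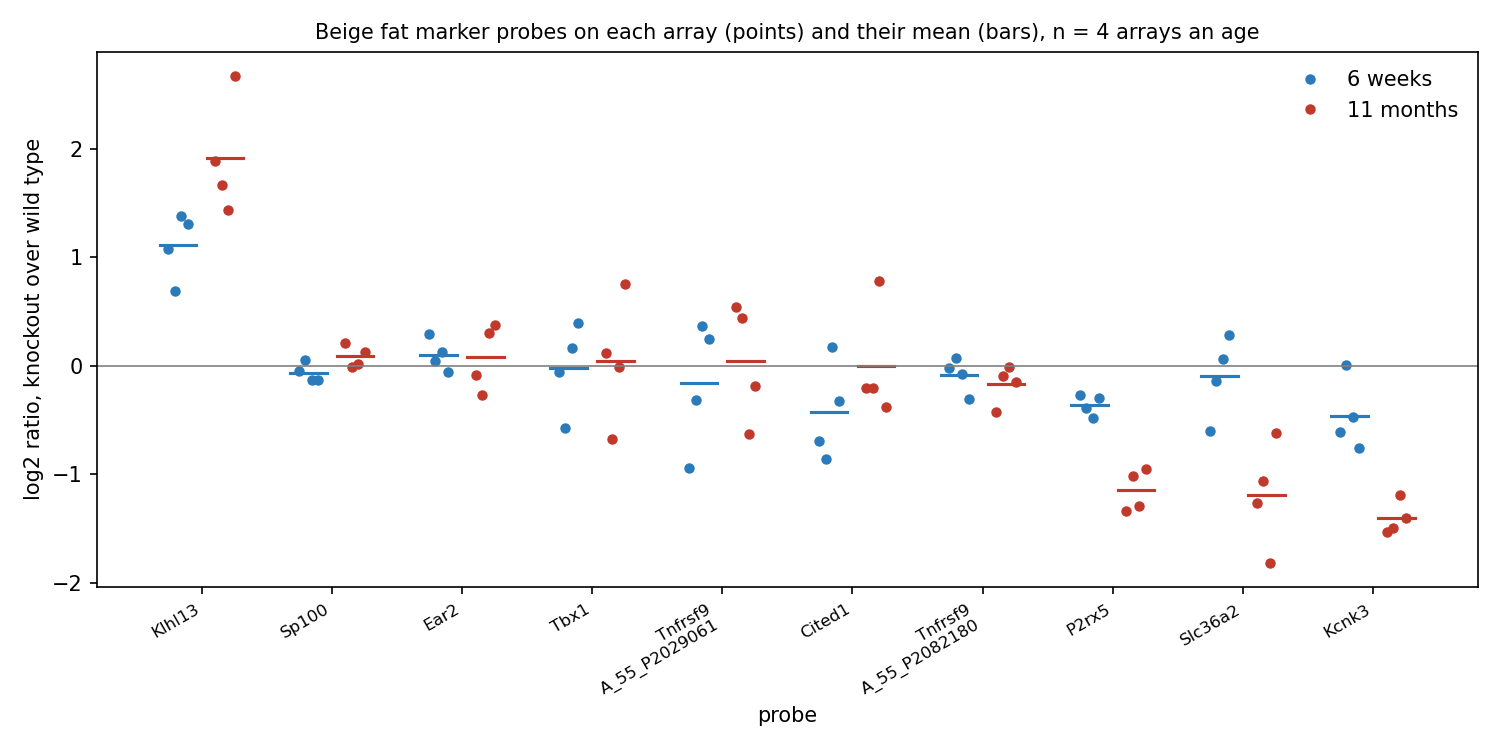
Log2 ratio of knockout over wild type of the 10 kept beige marker probes on each array (points, n = 4 arrays an age) and their mean (bars), in the order of the change at 11 months. All 8 Klhl13 points lie above 0, and all 4 points of P2rx5, Slc36a2 and Kcnk3 at 11 months lie below 0.

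Among the surface and transport proteins, Slc36a2 encodes a proton-coupled transporter of small amino acids such as glycine and proline. At 6 weeks its levels on arrays 1 to 4 were 15.19, 15.76, 15.71 and 15.91 in knockout brown fat, against 15.80, 15.90, 15.65 and 15.62 in wild-type brown fat. The genotypes overlapped, and knockout was below wild type on 2 of 4 arrays. These were the arrays with the knockout sample in Cy3, and the arrays with it in Cy5 had knockout above wild type. The change was -0.10 ± 0.18 (adjusted p = 0.755), with a 95% confidence interval of -0.52 to 0.33.

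At 11 months the Slc36a2 levels were 14.62, 14.56, 14.11 and 15.31 in knockout brown fat, against 15.88, 15.62, 15.92 and 15.93 in wild-type brown fat. Every knockout sample lay below every wild-type sample. Groups without overlap were found for 19.6% of kept probes at 6 weeks and for 25.2% at 11 months. The change was -1.19 ± 0.18 (2.28-fold lower, adjusted p = 0.0021), with array ratios between -1.82 and -0.62. In bulk tissue, fewer cells of a type and less RNA per cell cannot be told apart.

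P2rx5 encodes a cation channel opened by extracellular ATP. Its 6-week levels were 13.44, 13.07, 13.31 and 13.42 in knockout brown fat, against 13.70, 13.46, 13.79 and 13.71 in wild-type brown fat. All knockout samples lay below all wild-type samples, by a small margin between the highest knockout and the lowest wild-type sample. The ratios were between -0.48 and -0.27, and the change was -0.36 ± 0.08 (1.28-fold lower, adjusted p = 0.024).

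At 11 months P2rx5 levels were 12.24, 12.17, 11.76 and 12.22 in knockout brown fat, against 13.57, 13.19, 13.05 and 13.17 in wild-type brown fat. The groups were again separate, and the knockout sample of array 3 was the lowest. The change was -1.15 ± 0.08 (2.21-fold lower, adjusted p = 6.76e-05). The 6-week call of P2rx5 rested on all 4 arrays of that age, since leaving out any 1 of them gave adjusted p-values of 0.0537 to 0.0952 with ratios of -0.39 to -0.32.

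Kcnk3 encodes an acid-sensitive potassium leak channel that sets the resting membrane potential. At 6 weeks its levels were 13.07, 13.91, 13.59 and 13.37 in knockout brown fat, against 13.68, 13.91, 14.06 and 14.13 in wild-type brown fat. Knockout was lower on arrays 1, 3 and 4 and level with wild type on array 2, and the groups overlapped. The change was -0.46 ± 0.10 (1.37-fold lower, adjusted p = 0.0234), and it missed the threshold when array 1, 3 or 4 of that age was left out (adjusted p = 0.0965, 0.0573 and 0.0839).

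At 11 months Kcnk3 levels were 12.36, 12.39, 12.26 and 12.41 in knockout brown fat, against 13.90, 13.89, 13.45 and 13.81 in wild-type brown fat. The knockout samples lay close together and far below the wild-type samples, with ratios between -1.53 and -1.19. The change was -1.40 ± 0.10 (2.65-fold lower, adjusted p = 7.54e-05), the largest decrease among the beige markers tested. With median centring of each array in place of loess, the 6-week changes of P2rx5 and Kcnk3 were -0.11 (adjusted p = 0.739) and -0.22 (adjusted p = 0.395), while both 11-month calls and that of Slc36a2 still passed.

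**Figure D2:**
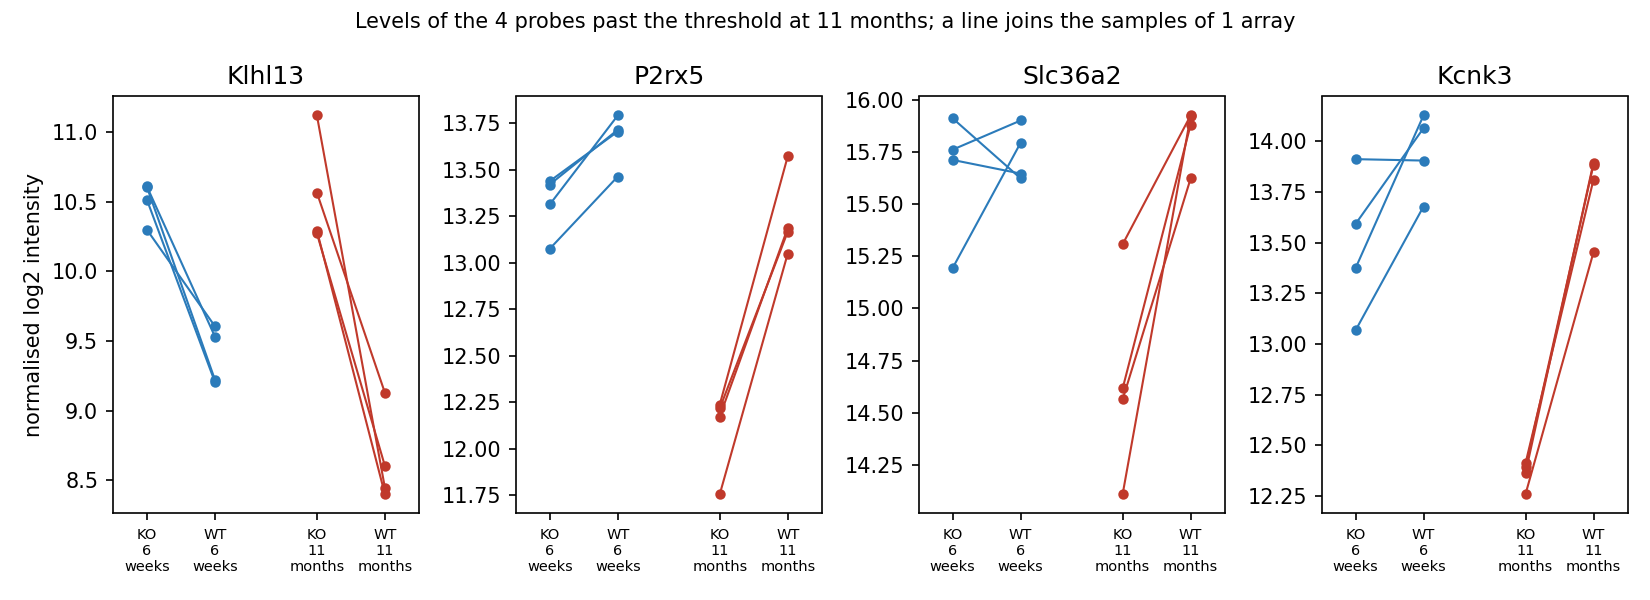
Normalised log2 intensity of Klhl13, P2rx5, Slc36a2 and Kcnk3 in knockout (KO) and wild-type (WT) brown fat at 6 weeks (blue) and 11 months (red), where each line joins the samples of 1 array and each panel has its own axis. Klhl13 lines run down from knockout to wild type at both ages, and the 11-month lines of the other genes run up.

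Tnfrsf9 encodes CD137, a receptor of the tumour necrosis factor family best known for co-stimulating T lymphocytes. The probe A_55_P2029061 was well above background in all 16 channel measurements. Its ratios were -0.94, -0.32, 0.37 and 0.25 on the 6-week arrays and 0.55, 0.44, -0.62 and -0.19 on the 11-month arrays. They followed the dye and not the genotype, with knockout above wild type on the 4 arrays that had the knockout sample in Cy5 and below it on the 4 that had it in Cy3.

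The change of this probe was -0.16 ± 0.11 (adjusted p = 0.351) at 6 weeks and 0.04 ± 0.11 (adjusted p = 0.798) at 11 months. Its dye coefficient was 0.46, at percentile 99 of the kept probes. The probe ends in the 22-base run of G and T shown in capitals, which 0.114% of all probes match or exceed in length. The other 44 probes with a run that long were also all kept, and they were well above background in 100% of measurements, against 63.6% over all probes. All 44 had a positive dye coefficient (median 0.49), as did 13156 of the 26815 kept probes. At either age 0 of the 44 passed, against 16.6% of kept probes at 6 weeks and 33.8% at 11 months. The 44 were chosen by the sequence they share, so they do not count as independent probes. This set was looked at after the values of the Tnfrsf9 probe were known, and the part of the run in the signal was not tested.

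The probe A_55_P2082180, which has no such run, was well above background in 9 of 16 channel measurements. At 6 weeks its levels were 6.91, 6.76, 6.98 and 6.89 in knockout brown fat, against 6.94, 6.69, 7.05 and 7.20 in wild-type brown fat. At 11 months they were 6.86, 6.83, 7.24 and 7.02 in knockout brown fat, against 7.28, 6.92, 7.25 and 7.16 in wild-type brown fat. The groups overlapped at both ages, although knockout was below wild type on 4 of 4 arrays at 11 months. Ratios of 1 sign on all 4 arrays were found for 34.6% of kept probes at 6 weeks and 50.1% at 11 months.

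The change of the second probe was -0.08 ± 0.07 (adjusted p = 0.472) at 6 weeks and -0.17 ± 0.07 (adjusted p = 0.112) at 11 months. At 11 months it passed under 3 other settings, with -0.29 (adjusted p = 0.0127) without background subtraction, -0.33 (adjusted p = 0.00902) in the deposited value table and -0.79 (adjusted p = 0.00193) with the log ratio of the scanner software. Lymphocytes were followed by 12 tested marker genes, of which 0 passed in limma at either age (1 at each age had an unadjusted p below 0.05). Of all kept probes 16.6% passed at 6 weeks and 33.8% at 11 months. The summed level of the lymphocyte genes was 12.64 to 12.78 in knockout brown fat against 12.75 to 12.88 in wild-type brown fat at 6 weeks. At 11 months it was 12.67 to 12.70 against 12.74 to 12.88.

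**Figure D3:**
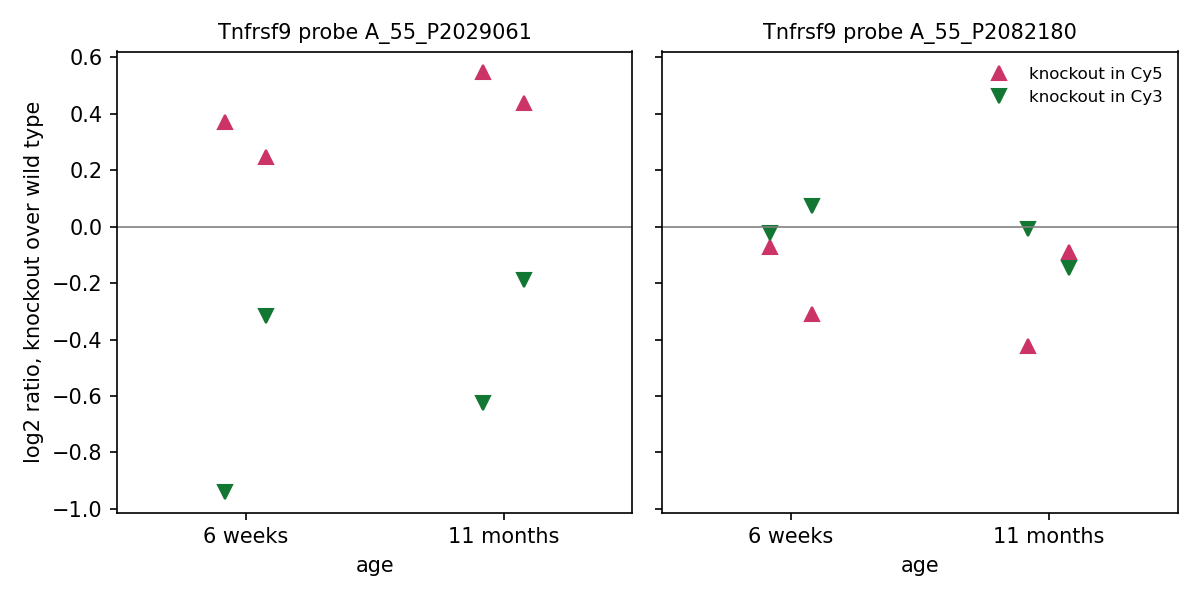
Log2 ratio of knockout over wild type of the 2 Tnfrsf9 probes on each array by age, with upward triangles for arrays that had the knockout sample in Cy5 and downward triangles for those that had it in Cy3. On the probe A_55_P2029061 the sign of all 8 ratios follows the dye, and on the probe A_55_P2082180 it does not.

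Tmem26 encodes a membrane protein used as a surface marker of mouse beige adipocytes. Its probe (chr10:68242806-68242865, plus strand) was well above background in 0 of 16 channel measurements, with levels of 6.33 to 6.41 in knockout brown fat against 6.31 to 6.45 in wild-type brown fat at 6 weeks, and 6.31 to 6.41 against 6.30 to 6.43 at 11 months. No fold is given, because the signal was not well above background in either genotype.

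Of the transcription regulators, Tbx1 encodes a T-box factor known for its part in pharyngeal development. Its probe (chr16:18581807-18581866, minus strand) was well above background in 11 of 16 channel measurements. The 6-week levels were 7.14, 6.77, 6.90 and 7.32 in knockout brown fat, against 7.19, 7.34, 6.74 and 6.92 in wild-type brown fat. At 11 months they were 7.52, 7.48, 6.84 and 8.01 in knockout brown fat, against 7.40, 8.15, 6.85 and 7.25 in wild-type brown fat. Arrays of 1 age pointed in opposite directions, and the groups overlapped at both ages.

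The change of Tbx1 was -0.02 ± 0.23 (adjusted p = 0.967) at 6 weeks and 0.05 ± 0.23 (adjusted p = 0.896) at 11 months. The 95% confidence intervals were wide, from -0.55 to 0.51 and from -0.48 to 0.58, and changes within them remain compatible with the data.

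Cited1 encodes a transcriptional co-regulator that does not bind DNA by itself, and its probe lies at chrX:99442776-99442835 (minus strand). Its 6-week levels were 7.95, 7.85, 8.28 and 7.76 in knockout brown fat, against 8.64, 8.71, 8.10 and 8.09 in wild-type brown fat. Knockout was lower on 3 of 4 arrays, and array 3 went the other way. The change was -0.42 ± 0.22 (adjusted p = 0.223), and it passed when each age was modelled alone (adjusted p = 0.0473), with the replicate number as a block (adjusted p = 0.0357) and without array 3 of the 11-month-old mice (adjusted p = 0.0426).

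At 11 months Cited1 levels were 8.05, 8.11, 9.28 and 7.73 in knockout brown fat, against 8.25, 8.31, 8.50 and 8.11 in wild-type brown fat. The knockout sample of array 3 stood above all others, and on the other arrays knockout was below wild type. The change was 0.0011 ± 0.22 (adjusted p = 0.998), and without array 3 it was -0.34 (adjusted p = 0.0866).

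Klhl13 encodes an adaptor of a cullin ubiquitin ligase, known with its partner Klhl9 for a part in cell division. The 6-week levels were 10.61, 10.30, 10.61 and 10.51 in knockout brown fat, against 9.53, 9.61, 9.22 and 9.21 in wild-type brown fat. All knockout samples lay above all wild-type samples. The change was 1.12 ± 0.20 (2.17-fold higher, adjusted p = 0.0112), and it came to 1.11 (adjusted p = 0.0527) without array 1 and 1.03 (adjusted p = 0.0502) without array 3 of that age.

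At 11 months Klhl13 levels were 10.29, 10.27, 10.57 and 11.12 in knockout brown fat, against 8.40, 8.60, 9.13 and 8.45 in wild-type brown fat. The groups were separate by more than at 6 weeks, and array 4 had the largest ratio (2.67, against 1.44 to 1.89 on the others). The change was 1.92 ± 0.20 (3.78-fold higher, adjusted p = 0.000312). Klhl9, with which Klhl13 acts, had changes of -0.32 (adjusted p = 0.162) at 6 weeks and 0.01 (adjusted p = 0.967) at 11 months.

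Sp100 encodes a component of nuclear bodies formed around the protein PML, and its gene responds to interferon. The probe lies at chr1:87605957-87606016 (plus strand). At 6 weeks its levels spanned 7.89 to 8.04 in knockout brown fat, against 7.89 to 8.08 in wild-type brown fat. At 11 months they were 8.08, 8.82, 8.07 and 7.97 in knockout brown fat, against 7.88, 8.83, 8.05 and 7.84 in wild-type brown fat. The groups overlapped at both ages, and array 2 of the 11-month-old mice was high in both genotypes.

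The change of Sp100 was -0.06 ± 0.06 (adjusted p = 0.512) at 6 weeks and 0.09 ± 0.06 (adjusted p = 0.305) at 11 months. Of 19 other interferon-stimulated genes, 2 passed as higher in knockout brown fat at 6 weeks, against 9.57% of all kept probes. At 11 months 11 of the 19 passed as higher, against 17.4%. As lower 0 of the 19 passed at either age, against 7.06% and 16.4%. With median centring, the scanner ratio or the deposited table, 0 passed at 6 weeks and 11 or 12 as higher at 11 months. Ifit3, an interferon-induced antiviral protein, was higher by 0.28 ± 0.07 (adjusted p = 0.0301) and 1.69 ± 0.07 (adjusted p = 1.19e-05). Among genes of nuclear bodies in that list, Daxx had a change of 0.49 ± 0.08 (adjusted p = 0.00208) and Pml one of -0.11 ± 0.10 (adjusted p = 0.435) at 11 months.

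Ear2 encodes an eosinophil-associated ribonuclease, a member of a mouse family of near-identical copies. The tables list transcripts of both Ear2 and Ear1 for its probe (chr14:44681119-44681178, plus strand), so signal of these genes cannot be told apart. Its 6-week levels were 8.59, 8.59, 8.16 and 8.04 in knockout brown fat, against 8.30, 8.54, 8.03 and 8.09 in wild-type brown fat. Its 11-month levels were 7.73, 7.51, 8.13 and 7.77 in knockout brown fat, against 7.82, 7.77, 7.83 and 7.39 in wild-type brown fat. The groups overlapped at both ages.

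The change of Ear2 was 0.10 ± 0.08 (adjusted p = 0.416) at 6 weeks and 0.08 ± 0.08 (adjusted p = 0.476) at 11 months. Eosinophil markers were low throughout. Prg2, Prg3, Epx, Alox15 and Siglec5 were well above background in 0 of 16 measurements, and Il5ra and Ccr3, the only 2 of 7 markers on the array that were tested, did not pass at either age. Their summed level was 8.09 to 8.18 in knockout brown fat against 8.21 to 8.24 in wild-type brown fat at 6 weeks, and 7.89 to 8.06 against 7.94 to 8.15 at 11 months.

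The difference between ages was tested in the same model as the 11-month minus the 6-week change. The decreases of 3 transport proteins were larger at 11 months, and 0 beige markers passed in the other direction. Over all kept probes, 9.72% passed with a lower and 7.88% with a higher ratio at 11 months (17.6% in either direction). The difference was -1.09 ± 0.26 (adjusted p = 0.0275) for Slc36a2, -0.79 ± 0.11 (adjusted p = 0.00477) for P2rx5 and -0.95 ± 0.14 (adjusted p = 0.00582) for Kcnk3.

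For these 3 genes and Klhl13 the array ratios of the ages did not overlap, as for 19.2% of kept probes. The margin was thin for Slc36a2, whose 11-month ratio of array 4 (-0.62) lay next to the 6-week ratio of array 1 (-0.60). It was also thin for Klhl13, with ratios of 1.44 at 11 months and 1.38 at 6 weeks, each on array 3. The Slc36a2 difference missed the threshold without array 2, 3 or 4 at 6 weeks, or array 1, 2 or 3 at 11 months (adjusted p = 0.0561 to 0.0781). With median centring none of these 3 differences passed, with -1.22 (adjusted p = 0.11) for Slc36a2, -0.82 (adjusted p = 0.135) for P2rx5 and -0.98 (adjusted p = 0.0586) for Kcnk3.

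For Klhl13 the difference was 0.80 ± 0.28 (adjusted p = 0.0867), with an interval of 0.16 to 1.45. It passed without background subtraction (1.09, adjusted p = 0.0205), in the deposited value table (1.11, adjusted p = 0.0188), with the log ratio of the scanner software (1.32, adjusted p = 0.0157) and without array 4 of the 11-month-old mice (0.48, adjusted p = 0.0422). The other 6 probes had differences of -0.09 to 0.42, and none passed.

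**Figure D4:**
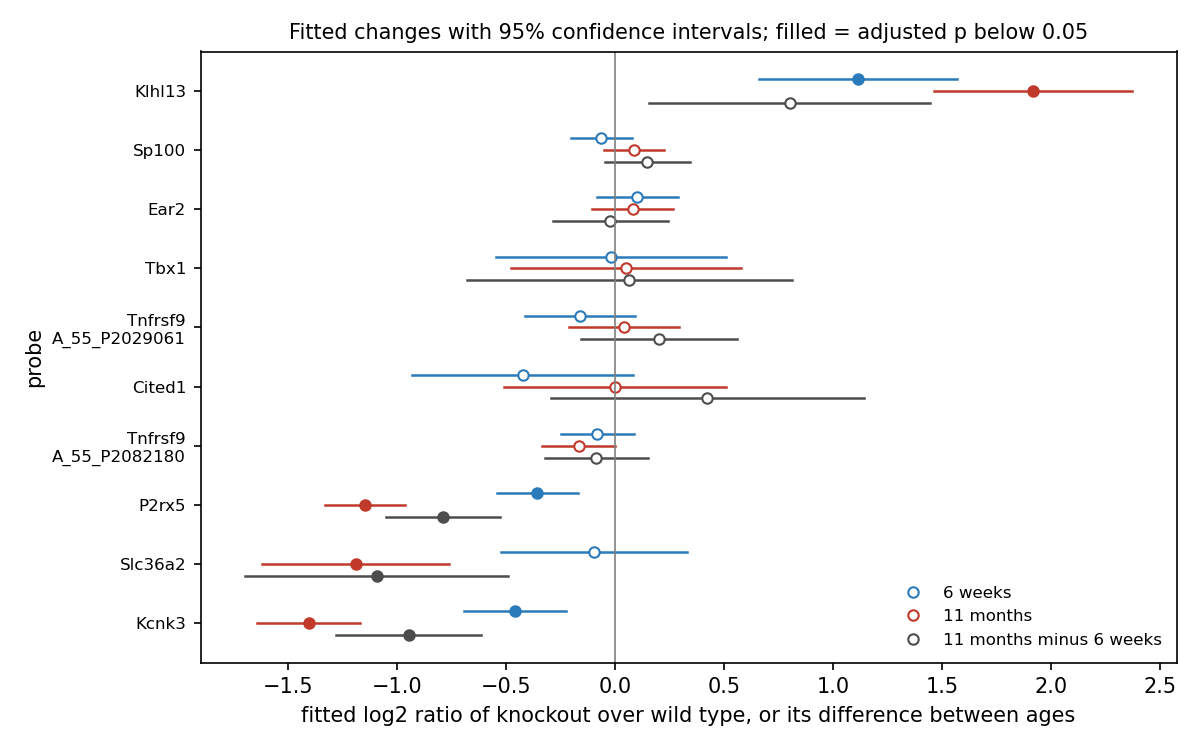
Fitted log2 change of the 10 kept beige marker probes at 6 weeks, at 11 months and its difference between ages (11 months minus 6 weeks), with 95% confidence intervals from 8 arrays. Filled points passed at an adjusted p below 0.05, which at 11 months were Klhl13 to the right and P2rx5, Slc36a2 and Kcnk3 to the left of 0.

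Of 10 other genes linked to beige fat in mice, 8 had a kept probe, and 2 passed as higher at 6 weeks, 3 as higher at 11 months and 0 as lower. Over all kept probes 9.57% passed as higher and 7.06% as lower at 6 weeks. At 11 months these shares were 17.4% and 16.4%. Slc27a1, a fatty acid transport protein, was higher by 2.14-fold at 6 weeks (adjusted p = 0.000284) and 2.49-fold at 11 months (adjusted p = 1.28e-05). Fgf21, a hormone secreted by thermogenic fat and liver, was well above background in 3 knockout and 0 wild-type samples at 6 weeks, where its mean level was 7.44 in knockout brown fat against 6.63 in wild-type brown fat. It passed as higher there (adjusted p = 0.0293), with a fitted change of 0.81 ± 0.19. Raising wild-type levels to at least the lowest signal among probes well above background on each array left 1.62-fold. That value leaves out the error, and its knockout mean includes signal not well above background. Fgf21 had 6 of 16 measurements well above background and met the filter only through the group in which it was higher. At 11 months Fgf21 was well above background in 1 knockout and 2 wild-type samples and did not pass (adjusted p = 0.9). Pdgfra, a receptor of adipocyte progenitors, and Mtus1, a microtubule-associated protein, were higher at 11 months by 0.49 (adjusted p = 0.0445) and 0.48 (adjusted p = 0.0201). With median centring Fgf21 (adjusted p = 0.0676) and Mtus1 (adjusted p = 0.0665) did not pass, and Pdgfra did not pass with the scanner ratio (adjusted p = 0.0802) or in the deposited table (adjusted p = 0.0628).

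Brown fat genes were mostly lower in knockout tissue at 11 months, as the 3 transport proteins were. At 6 weeks 1 of 19 tested genes was lower and 1 higher in knockout brown fat (median change -0.0036), against 7.06% and 9.57% of all kept probes. In limma 9 of the 19 had an unadjusted p below 0.05 at that age, in either direction. Ucp1 had a change of 0.13 (adjusted p = 0.863). At 11 months 12 of the 19 were lower and 1 was higher (median -2.16), against 16.4% and 17.4% of all kept probes. Ucp1 was then lower by 16.6-fold (-4.05 ± 0.44, adjusted p = 0.000412). The summed level of the list was 19.3 to 19.9 in knockout brown fat against 19.7 to 20.1 in wild-type brown fat at 6 weeks, and 17.4 to 18.7 against 20.4 to 20.8 at 11 months.

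White fat genes were higher in knockout brown fat, with 8 of 13 at 6 weeks and 11 of 13 at 11 months and 0 lower. Of all kept probes 9.57% and 17.4% passed as higher at these ages. Retn, which encodes the adipokine resistin, was higher by 2.40 ± 0.12 (adjusted p = 0.000284) and 3.92 ± 0.12 (adjusted p = 8.34e-06). The summed level of the list was 17.7 to 17.9 in knockout brown fat against 15.4 to 15.8 in wild-type brown fat at 6 weeks, and 18.2 to 19.2 against 15.2 to 16.3 at 11 months. General adipocyte genes were higher in 5 of 8 cases at 6 weeks and 7 of 8 at 11 months, and in 3 and 5 with median centring.

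For comparison with the lists that follow, 9.57% of all kept probes passed as higher and 7.06% as lower at 6 weeks. At 11 months these shares were 17.4% and 16.4%. Of the other cell types the tissue could hold, 1 of 9 macrophage genes was higher and 1 lower at 6 weeks, and 5 were higher at 11 months. The lower call was not made with median centring, the scanner ratio or the deposited table. At 11 months the median macrophage ratio was 0.07 and 0.02 on arrays 1 and 2, which had the knockout sample in Cy5. It was 0.82 and 0.53 on arrays 3 and 4, which had it in Cy3. Of 8 smooth muscle genes 2 were lower at 6 weeks (0 with median centring) and 5 were higher at 11 months, with Acta2, smooth muscle actin, at 0.70 (adjusted p = 0.00177). Of 9 endothelial genes 3 were lower at 6 weeks (0 with median centring), with the receptor Tie1 at -0.42 (adjusted p = 0.0187), and 1 was higher at 11 months. Of 7 neural genes 0 passed in limma at 6 weeks (2 had an unadjusted p below 0.05, and 1 was lower with the scanner ratio), and 2 were lower at 11 months. S100b, a calcium-binding protein known from glia and also made by adipocytes, was 5.16-fold lower (adjusted p = 0.00763), and Th, the enzyme that limits catecholamine synthesis, was lower by 1.35-fold (adjusted p = 0.002), which did not pass with median centring (adjusted p = 0.2). The summed levels at 11 months in knockout against wild-type brown fat were 12.8 to 14.2 against 14.3 to 15.3 for the neural list, 14.7 to 14.8 against 14.3 to 14.4 for smooth muscle, 14.3 to 15.1 against 14.2 to 14.4 for macrophages and 14.8 to 15.0 against 14.6 to 14.9 for endothelium. The part of these lists in the values of the beige markers was not tested.

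Of the genes closest in family to the beige markers, 36 of 49 were tested. At 6 weeks 2 were higher, P2rx6 by 0.69 (adjusted p = 0.00288) and Tnfrsf4 by 0.26 (adjusted p = 0.0249). At 11 months 3 were higher, with Cited2 at 0.82 (adjusted p = 0.0144), and 3 were lower, with Kcnk4, another potassium leak channel, at -0.64 (adjusted p = 0.000164). These 6 of 36 compare with 33.8% of all kept probes at 11 months, and the 2 of 36 at 6 weeks with 16.6%. With the scanner ratio 8 were higher and 5 lower at 11 months, with the deposited values 6 and 4, and with median centring 3 and 1. At 6 weeks Tnfrsf4 did not pass with median centring (adjusted p = 0.0808). The median change of the family members was 0.0018 at 6 weeks and 0.03 at 11 months. The paralogues of Slc36a2 tested as Slc36a1, Slc36a3 and Slc36a4 had 11-month changes of -0.07 (adjusted p = 0.319), 0.10 (adjusted p = 0.215) and 0.32 (adjusted p = 0.00938).

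Skeletal muscle genes varied widely between arrays of 1 age, with array medians of their ratios from -3.44 to 2.94 at 6 weeks and from -1.23 to 1.72 at 11 months. The summed level of the list was 13.1 to 15.5 in knockout brown fat against 12.2 to 17.6 in wild-type brown fat at 6 weeks, and 16.6 to 19.8 against 16.8 to 19.3 at 11 months. None of the 14 genes passed in limma at either age, and 1 at 6 weeks and 0 at 11 months had an unadjusted p below 0.05. Of all kept probes 16.6% passed at 6 weeks and 33.8% at 11 months. Without arrays 3 and 4 of the 6-week-old mice, which had the medians largest in size, 0 beige markers passed at 6 weeks. Klhl13 then had a change of 0.75 (adjusted p = 0.199), P2rx5 of -0.35 (adjusted p = 0.181) and Kcnk3 of -0.41 (adjusted p = 0.201), and the same 4 probes passed at 11 months. Without array 2 of that age as well, which had the third largest median in size and whose removal left 1 array at 6 weeks, 0 beige markers passed at 6 weeks and 0 in the difference between ages. The differences were then -0.62 (adjusted p = 0.51) for Slc36a2, -0.85 (adjusted p = 0.106) for P2rx5 and -0.69 (adjusted p = 0.0861) for Kcnk3, and the 4 probes again passed at 11 months. Arrays 3 and 4 are also the 6-week arrays that had the knockout sample in Cy5, so that leaving them out changed the dye balance and the number of arrays along with the muscle signal, and the dye term then rested on the 11-month arrays. Both choices were made after seeing the data, and the part of muscle RNA in the beige marker values was not tested.

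The other genes whose ratios were most like those of a beige marker were found by Pearson's r over the 8 dye-adjusted ratios, which share arrays, ages and the dye correction. The r values given are the highest from a search of the kept probes of all other genes. A search that wide over 8 values yields high r by itself, so they describe the ranking only. No test was made of these genes' likeness. For Klhl13 the closest genes were Sbf2 (r = 0.993), Rab33a (0.991) and Kcnma1 (0.991). For Slc36a2 they were Hadh, a mitochondrial enzyme of fatty acid oxidation (r = 0.997), Mib2 (0.996) and Cyp2r1 (0.995). For P2rx5 they were Psmc6, AI646519 and Gm9054 (0.992 each), and for Kcnk3 they were Slc25a46 (0.992), Blvra (0.989) and LOC100044654 (0.987).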

How the data were processed

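Per the file headers, intensity (mean foreground, median background) was read by Agilent Feature Extraction 10.5.1.1 (6 weeks) and 10.10.1.1 (11 months), which also gave a log10 ratio of Cy5 over Cy3. The deposited value table fits log2 ratios; the submitters' processing notes name limma with no role and no other step; they correlated with the scanner's knockout over wild type (r of 0.856 to 0.914, column medians -0.05 to 0.084).

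Intensities went through normexp (offset 50) and loess within arrays in limma 3.58.1 (jsonlite 2.0.0 and data.table version 1.17.8 under R 4.3.3). Control spots had weight 0 and were left out, as were outliers among the other spots (131 to 247 per array). Replicate spots were averaged, and 0 non-control spots were saturated. A kept probe was also measured on at least 3 arrays of either age. The model, tested on simulated data, had 5 residual degrees of freedom (7.77 moderated), and the number of arrays limits the precision.

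Arrays with the same replicate number at the 2 ages share a slide position and correlated in their deviations by 0.176 to 0.461, neighbouring positions (1 with 2, 3 with 4) by 0.169 to 0.450 and the rest by -0.485 to -0.142. Positions 1 and 2 had the knockout sample in Cy3 at 6 weeks and in Cy5 at 11 months. Positions 3 and 4 had the reverse. Taking out 1 shared dye coefficient gives this pattern by itself wherever the dye effect differed between ages. These correlations therefore cannot show an effect of slide position. The number was also fitted as a block. Other alternatives were the normalization, background correction, deposited values, filter, dye term, 1 probe per gene and leaving out each array. Members, lists and the naming rule (Prdm16, the brown fat genes that define the tissue, every member, 2 called genes with the largest change per list and age, 3 closest in ratio) were chosen with earlier results of these data known. Klhl9, Mtus1, Daxx, Pml, the Slc36a2 paralogues and the probes with the G and T run were added after their values were seen.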

Additional observations from a re-analysis of the deposited data

Results flagged for a closer look

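In 5 of 60 sets of 4 values checked, the highest or lowest sample stood apart from the other 3, and chance gives about 1 in 20. All 5 were of 11-month-old mice. The Cited1 ratio on array 3 was 0.79, against -0.38 to -0.20 on the other arrays. The Slc36a2 level in the wild-type sample of array 2 was 15.62, against 15.88 to 15.93 in the others. The P2rx5 level in the knockout sample of array 3 was 11.76, against 12.17 to 12.24. The Sp100 level in the knockout sample of array 2 was 8.82, against 7.97 to 8.08. The Ear2 level in the wild-type sample of array 4 was 7.39, against 7.77 to 7.83.

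The change between genotypes differed between ages in 3 genes by the test of the difference itself. The 11-month minus the 6-week change was -1.09 for Slc36a2 (adjusted p = 0.0275), -0.79 for P2rx5 (adjusted p = 0.00477) and -0.95 for Kcnk3 (adjusted p = 0.00582). The ages were on separate slides and read with different software versions, so age and slide cannot be told apart in these differences.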

How the results depend on the processing

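The 11-month changes of Klhl13, Slc36a2, P2rx5 and Kcnk3 passed under all 21 alternatives tried. The number of kept probes called at 6 weeks, at 11 months and in the difference was 4459, 9067 and 4720. With median centring in place of loess it was 1244, 5918 and 602, and 1 beige marker was called at 6 weeks and 0 in the difference; 70.5%, 70.7% and 59% of calls were higher, against 57.6%, 51.4% and 44.8%. With the log ratio of the scanner software 2851 probes were called at 6 weeks, and 5 beige markers in the difference. Without a dye term 3005 were called in the difference. Without the 2 arrays with the largest skeletal muscle medians 3143 were called in the difference and 0 beige markers at 6 weeks. Without the 3 such arrays, which left 1 array at 6 weeks that is assumed to vary like the 11-month arrays, 1526 were called at 6 weeks and 728 in the difference, with 0 beige markers in either. With the replicate number as a block 5309, 9418 and 5141 were called, and Cited1 at 6 weeks was the only beige marker call it changed.

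Leaving out 1 array at a time gave 1483 to 5397 probes at 6 weeks, 5928 to 9215 at 11 months and 2445 to 3834 in the difference, with 0 to 4, 4 to 4 and 2 to 4 beige markers called. At 6 weeks 0 beige markers passed without array 1 or array 3, and 1 without array 4. P2rx5 at 6 weeks also missed the threshold with the scanner ratio (adjusted p = 0.0534), Kcnk3 at 6 weeks when the ages were modelled separately (adjusted p = 0.0623), and the Slc36a2 difference without the 2 arrays (-0.85, adjusted p = 0.204). The difference of the Tnfrsf9 probe A_55_P2082180 passed with the scanner ratio (-0.57, adjusted p = 0.0498).

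Some changes that had not passed turned in sign, and the cause was not tested. With median centring at 6 weeks, A_55_P2029061 of Tnfrsf9 was 0.0639 and Slc36a2 0.159. Tbx1 at 11 months was -0.186 with the scanner ratio, -0.0344 without background subtraction and -0.0418 in the deposited table, and its difference was -0.0813 with the scanner ratio. The difference of Ear2 was 0.115, 0.185 and 0.188 under the same settings, 0.0477 without the 3 arrays and 0.17 without the 2 arrays, where Sp100 and Ear2 at 6 weeks were 0.015 and -0.088. With single arrays left out, Tbx1 ranged from -0.188 to 0.21 at 6 weeks, from -0.229 to 0.332 at 11 months and from -0.211 to 0.35 in the difference. Slc36a2 at 6 weeks ranged from -0.191 to 0.0449, Cited1 at 11 months from -0.342 to 0.123, A_55_P2029061 of Tnfrsf9 at 11 months from -0.0483 to 0.126 and the difference of Ear2 from -0.108 to 0.0528. Signal over background limited Tmem26, Tbx1 and the second Tnfrsf9 probe.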
